A study of Arabidopsis thaliana with 16 samples.

Results

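The 41 probe sets described here were chosen from an array study of sorted root cells of Arabidopsis thaliana. Their mean signal was low in the columella against that in every other population. A probe set is the group of short probes that reads 1 transcript, or a few similar ones. Members are nuclear probe sets, without the controls of the array, whose mean signal was at least 200 in epidermis, cortex, endodermis and stele, with the lowest of these means at least 4 times the columella mean. The rule kept 41 of 22603 nuclear probe sets, out of 22746 in the table. A mean of 200 in all 4 populations was reached by 4547 nuclear probe sets, of which the members are 0.902%. The annotation names 1 gene for 22 members, several for 1 and none for 18. Members without a named gene are given by the probe set's ID.

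All cells came from roots of the Columbia ecotype, in seedlings of 6 days that were then kept for 24 h on iron-free medium with 0.3 mM ferrozine, a chelator of ferrous iron. Roots were digested to protoplasts, and fluorescent cells of 1 reporter line per population were collected with a cell sorter. The populations were columella from line PET111 (n = 3 arrays), epidermis with lateral root cap from WER::GFP (n = 4), cortex from the line CORTEX (n = 3), endodermis with quiescent center from SCR::GFP (n = 3) and stele from WOL::GFP (n = 3). Every array is of iron-deficient roots, so no value below is a response to iron. Whether replicates were separate cultures is not stated in the labels, and a p-value here measures no more than the spread between the arrays of this study.

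The columella is the central part of the root cap, whose starch-filled cells sense gravity and are shed as the root grows. The named members encode, among others, secreted and wall-active proteins: class III peroxidases, which oxidise phenolic compounds and act on reactive oxygen in the wall, a TBL protein, whose family adds acetyl groups to wall polysaccharides, and a glycosyl hydrolase. UPB1, the transcription factor among them, is known to repress peroxidase genes where root cells pass from division to elongation.

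The columella samples carried the transcripts that mark their label. The summed signal of 4 measured root cap markers, of 16 listed, was 8503, 10129 and 10003 in columella replicates 1 to 3, against 1406 to 4148 in epidermis arrays and at most 924 in the others. These 4 were the polygalacturonase gene RCPG (AT1G65570) and the starch genes APL4, SBE2.2 and DPE1. The 4 cortex markers summed to 80.1, 50.2 and 45.1 in columella, against 2380, 1232 and 1512 in cortex. Of 10 endodermis markers only SGN1 (AT1G61590) was measured, at 48.0, 25.6 and 30.0 in columella against 4706 to 7320 in endodermis. The 3 measured epidermis markers of 7, TRY, EXPA7 and EXPA18, summed to 241, 139 and 130 in columella, against 469.5 to 1132 in epidermis and 322 to 1326 in cortex, so they did not set the epidermis apart. None of 8 stele markers was measured. Here and below, measured means that the annotation names the gene alone for a nuclear probe set. Genes not measured in this sense may be read by probe sets without a single named gene, which was not checked. Epidermis replicate 4 stood apart within its group, with 4148 for root cap markers and 113 for cortex markers, against 1406 to 2338 and 50.3 to 58.7 in the other 3.

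Members were low in the columella, and whether any was silent there cannot be told from these signals. The columella mean of a member ran from 29.0 to 262.2, with a median of 72.8, while the median over members of the population mean was 1472 in cortex, 696 in endodermis, 626 in stele and 482 in epidermis. These signals chose the members and are given as a description. Of 41 columella means, 5 lay under 38.05, the 40th percentile of all signals in the table, and 0 members had all 3 columella arrays under it. By array, 3 members were under it in columella replicate 1, 5 in replicate 2 and 23 in replicate 3. The share of other probe sets under it in each columella array was not computed. No detection calls were used, so a low signal cannot be told from background. An array of sorted cells pools many cells, so fewer expressing cells and less RNA per cell cannot be told apart. The lowest of the 4 means was 4.02 to 12.3 times the columella mean, with a median of 4.96. In 39 of 41 members every columella array lay below each of the other 13 arrays, as it did in 9.81% of the 4547 nuclear probe sets at 200 or more. The 2 members with an overlap were AT3G06460 and 251438_s_at. By limma's test of columella against the mean of the other 4 populations, all 41 members were called lower, where 47.3% of the 16221 probe sets tested were called and 24.4% were lower. That contrast is what chose them, and nothing is read from it.

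**Figure D1:**
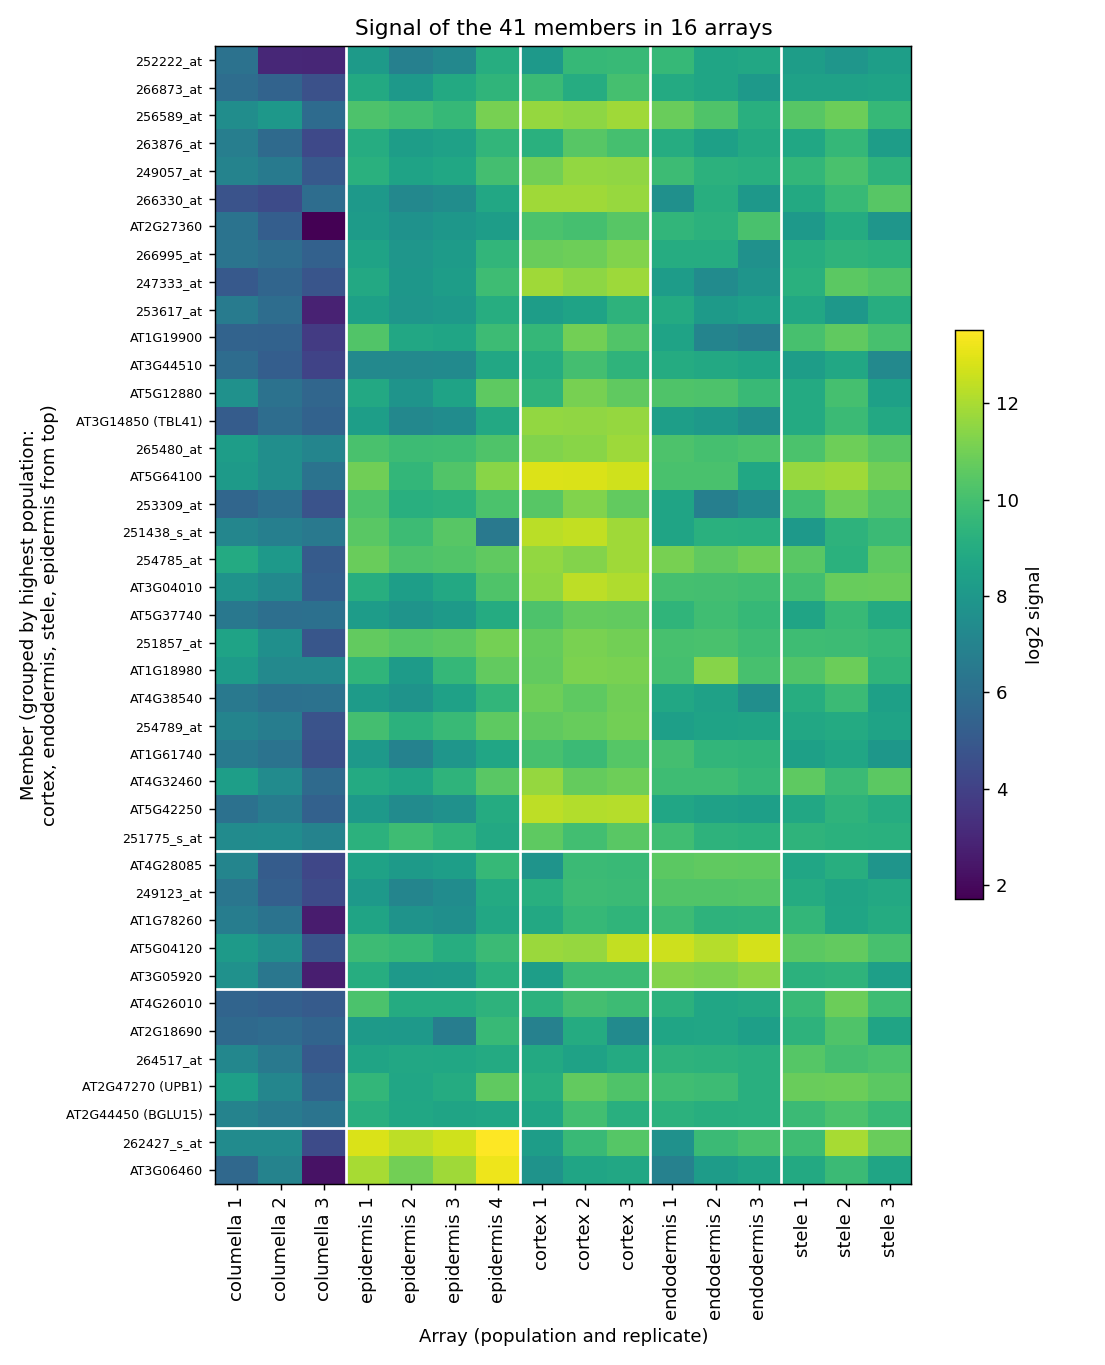
Signal of the 41 members (rows, by gene or probe set ID) in the 16 arrays (columns), on a log2 colour scale with low signal dark and high signal bright. White lines separate populations and, between rows, members grouped by the population of their highest mean (29 in cortex, 5 in endodermis, 5 in stele and 2 in epidermis), and the 3 columella columns are darkest in nearly every row.

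The thresholds fell within a continuous range of values. The members just inside the ratio of 4 were 251775_s_at (4.02), the alcohol dehydrogenase-like gene AT5G42250 (4.05) and AT4G32460 (4.07). Just outside were 259958_at (3.95), AT5G44020 (3.94) and 250252_at (3.92), and 50 nuclear probe sets in all had a ratio from 3 up to 4 with the same minimum of 200. The minimum left out 118 probe sets that had the ratio, among them 261474_at, whose lowest mean was 199.9 and whose ratio was 13.1, and AT4G20860, a berberine bridge enzyme-like gene, with 198.8 and 5.43. The members nearest to the minimum were AT1G19900, with a lowest mean of 207.0, 253309_at (222.5) and AT3G44510 (228.5). With another population in the place of the columella, the same rule kept 57 probe sets low in epidermis, 6 low in cortex, 9 low in endodermis and 0 low in stele.

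The 3 columella arrays differed among themselves in these members. The median signal over members was 108.8, 74.6 and 32.3 in columella replicates 1, 2 and 3, while the median over the 4547 nuclear probe sets at 200 or more was 688, 665 and 671. Columella replicate 3 was the lowest of the 3 for 37 of 41 members, and the share of other probe sets lowest in it was not computed. Replicate 1 was the highest for 32 (78.0%), against 34.7% of the other nuclear probe sets at 200 or more. Among 8394 nuclear probe sets that are no members but have columella means in the members' range, the medians were 92.9, 90.9 and 90.6. The signal was at or under 25% of the lowest of the 4 means for 15 members in replicate 1, for 34 in replicate 2 and for 41 in replicate 3. All 3 arrays met that limit for 12 members, of which 4 have a named gene: AT4G26010, AT1G19900, TBL41 and AT2G18690. The marker sums of cortex and epidermis given above were also highest in columella replicate 1, and their part in this difference was not tested.

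**Figure D2:**
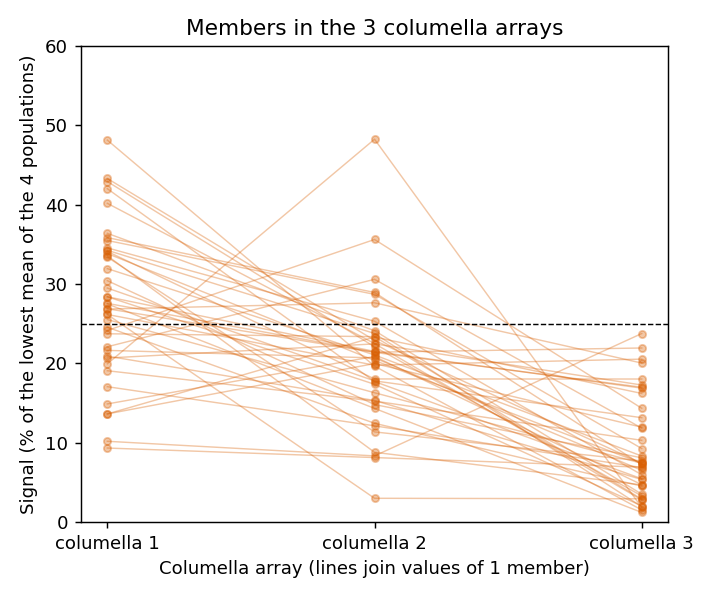
Signal of each member in the 3 columella arrays, as a percent of the lowest of its means in epidermis, cortex, endodermis and stele (1 line per member, dashed line at 25%). Replicate 3 lies under the dashed line for all 41 members and replicate 1 for 15, and the highest value of any member is 48.2%.

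How far the low columella signal held in an array that did not choose the members depended on the array. The lowest of the 4 means also chose the probe sets, so only the columella array left out is new. The share of the 4547 nuclear probe sets at 200 or more that met the ratio in each array was not computed. The percentages below are therefore a description. With the rule applied without columella replicate 3, 24 probe sets were chosen, and in replicate 3 all 24 (100%) were at least 4 times lower than the lowest of the 4 means, with a median ratio of 13.2. Without replicate 2, 48 were chosen and 32 (66.7%) met the ratio in replicate 2, with a median of 4.66. Without replicate 1, 96 were chosen, of which 14 (14.6%) met it in replicate 1, where the median ratio was 2.44 and 1 probe set had a signal above the lowest mean. All 24 probe sets chosen without replicate 3 are members, as are 39 of the 48 and 40 of the 96. Leaving out epidermis replicate 4 gave 28 probe sets, 27 of them members. AT5G42250, AT3G44510, 252222_at and 266330_at, all described below, are among the members that this fit of the rule no longer kept.

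**Figure D3:**
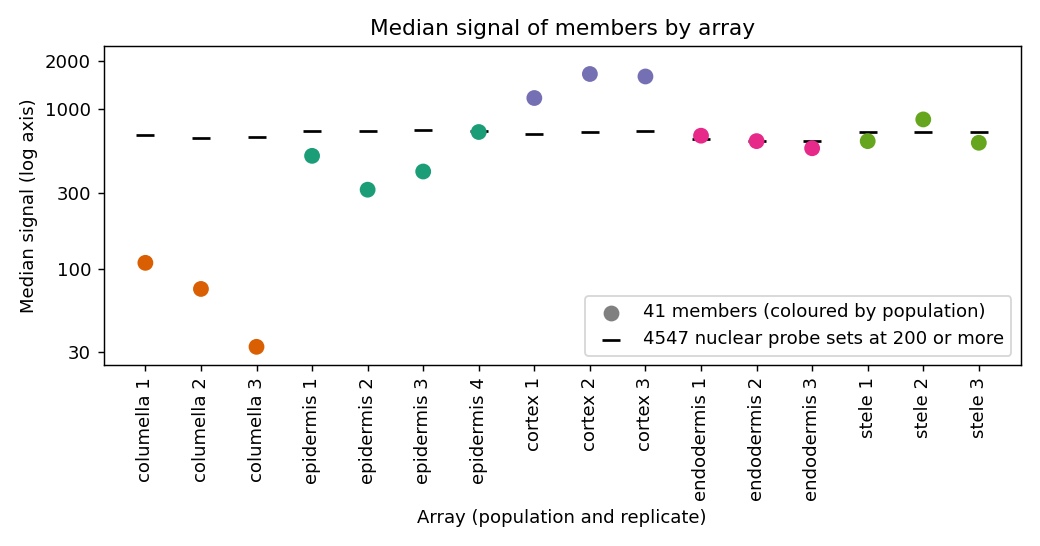
Median signal over the 41 members in each array (points, coloured by population, log axis) and over the 4547 nuclear probe sets with means of at least 200 in the 4 populations (bars). Members lie far below the bars in the 3 columella arrays and also below them in every epidermis array. They lie above the bars in the 3 cortex arrays, where their medians are 1178, 1667 and 1608.

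Outside the columella the members were most often highest in the cortex. The cortex had the highest of the 4 means in 29 members (70.7%), against 24.5% of the 4547 nuclear probe sets at 200 or more. Endodermis and stele were highest in 5 members each (12.2%), against 23.9% and 17.7%, and epidermis was highest in 2 (4.88%), against 33.8%. The lowest of the 4 means was that of epidermis in 20 members (48.8%, against 24.7%) and of cortex in 1 (2.44%, against 25.97%). Endodermis was lowest in 14 (34.1%, against 34.2%) and stele in 6 (14.6%, against 15.2%), both near the share of the 4547. The highest of the 4 means was 1.29 to 18 times the lowest, with a median of 4.26, where the median over the 4547 probe sets was 2.06. The median signal over members was 1178, 1667 and 1608 in the cortex arrays. In epidermis it was 511, 313, 407 and 721, in endodermis 683, 632 and 570, and in stele 632, 864 and 617. All 3 cortex arrays were thus above the other 10 of these 13 arrays, while epidermis, endodermis and stele overlapped. In every epidermis array the median over members lay below that of the 4547, which was 727, 730, 742 and 735. In endodermis and in stele it lay above that of the 4547 in some arrays and below it in others. Epidermis replicate 4 was the highest epidermis array in 33 of 41 members, against 41.9% of the 4547.

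**Figure D4:**
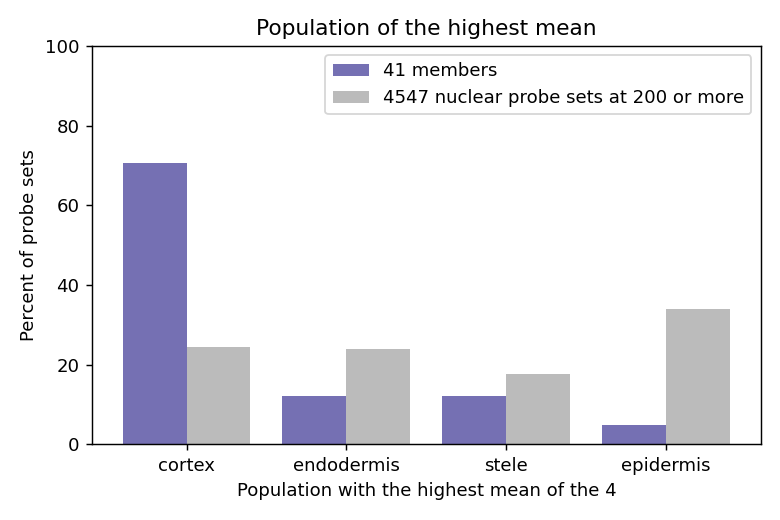
Percent of the 41 members and of the 4547 nuclear probe sets at 200 or more whose highest mean among cortex, endodermis, stele and epidermis fell in each population. The cortex bar reaches 70.7% for members and 24.5% for the 4547 probe sets.

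Differences among these 4 populations, which the rule does not ask for, were tested with limma on log2(signal + 10.21), with p-values adjusted over all 16221 probe sets tested. All 41 members passed the filter on low signals, which their signals of 200 or more in the other populations assured. The F test among the 4 populations called 32 of 41 members (78.0%), close to the 74.3% of all tested probe sets and the 75.5% of the 4547. The count was 29 to 37 when single arrays were left out. The share of members that differed among the 4 populations is thus near the background.

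In epidermis minus cortex, 26 members were called, against a background of 47.8%: 2 were higher in epidermis and 24 (58.5%) were lower, against 26.4% and 21.4% of all tested. In cortex minus endodermis, 21 were called, against 44.3% of all tested, with 19 (46.3%) higher in cortex and 2 lower, where 18.3% and 26.1% of all tested were higher and lower. In cortex minus stele, 22 were called, against 33.8% of all tested, with 20 (48.8%) higher in cortex, against 12.9%, and 2 lower. The median difference over members was -1.39 (log2) in epidermis minus cortex, 0.83 in cortex minus endodermis and 1.08 in cortex minus stele. Over all tested probe sets these medians were 0.10, -0.21 and -0.13. Of the 4547, 21.9% were lower in epidermis than in cortex. In cortex, 24.9% of the 4547 were higher than in endodermis and 15.2% higher than in stele. In 15 members (36.6%) the cortex was above each of the other 3 populations, against 5.13% of all tested and 5.63% of the 4547. Without cortex replicate 3 that count was 9. Epidermis and endodermis were above each other population in 2 members each (4.88%, against 6.05% and 6.9% of all tested), and stele was in 1 (2.44%, against 3.16%).

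Fewer members were called in the contrasts without the cortex. In epidermis minus endodermis, 14 members were called (34.1%, against 52.7%), 5 higher (12.2%, against 25%) and 9 lower (22%, against 27.6%) in epidermis. Array weights gave 14 lower and the fit without epidermis replicate 4 also gave 14. In epidermis minus stele, 11 were called (26.8%, against 33.3%), 3 higher (7.32%, against 14.1%) and 8 lower (19.5%, against 19.2%) in epidermis. This count rose to 19 without epidermis replicate 4 and was 6 or 7 without stele replicate 2 or 3 or epidermis replicate 2 or 3. Without 1 array, 1 to 4 were higher and 3 (without stele replicate 2) to 16 (without epidermis replicate 4) lower. In endodermis minus stele, 14 were called (34.1%, against 30%), 6 higher (14.6%, against 14.6%) and 8 lower (19.5%, against 15.4%) in endodermis. The count was 9 without endodermis replicate 3 and 8 without stele replicate 3. The 6 higher became 2 without stele replicate 3, and the 8 lower became 4 without endodermis replicate 3 or stele replicate 2. The shares above are of all tested probe sets. Of the 4547, 52.7%, 30.7% and 33.5% were called in these contrasts, in the order given. Higher were 31.5%, 15.5% and 13% of the 4547, and lower were 21.3%, 15.2% and 20.6%. The slope from epidermis through cortex and endodermis to stele, the order of the layers from outside to inside, was called in 7 members (17.1%, against 35.6%), 4 rising and 3 falling inwards. It was called in 4 members without stele replicate 1 and in 13 with array weights.

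Of the 15 members with the cortex above each other population, most have no single named gene. The named ones encode an alcohol dehydrogenase-like enzyme, a TBL protein, a peroxidase, a monooxygenase, a glycosyl hydrolase and a C2-domain protein. AT5G42250, related to alcohol dehydrogenases, had signals of 69.4, 102 and 41.2 in columella against 5184, 4543 and 4703 in cortex. Its signals were 272, 167, 206 and 504 in epidermis, 411, 351 and 326 in endodermis and 438, 677 and 520.3 in stele. The cortex arrays stood far above all others, and the columella arrays lay below the rest. On the log2(signal + 10.21) scale AT5G42250 was 8.80-fold higher in cortex than in stele, the next population (log2 difference 3.14, SE 0.33, limma adjusted p = 3.2e-06).

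TBL41 (AT3G14850), of the family that acetylates wall polysaccharides, had 35.7, 61 and 42.4 in columella against 3087, 3037 and 3214 in cortex. It had 319.9, 148, 177 and 459 in epidermis, 325, 265 and 195 in endodermis and 479, 864 and 450 in stele. Here too the cortex arrays lay close together and above all others. The cortex was 5.37-fold above stele (limma adjusted p = 6.3e-05), and stele was above epidermis and endodermis (epidermis minus stele -1.16 and endodermis minus stele -1.13 on the log2 scale, limma adjusted p = 0.011 and 0.022).

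AT5G64100, a class III peroxidase gene, had 283, 186 and 73.8 in columella against 7508, 7237 and 6441 in cortex. It had 1987, 732, 1274 and 2740.3 in epidermis, 1104, 1126 and 425 in endodermis and 3345, 3666 and 1979 in stele. Its highest columella signal was still below its lowest endodermis signal. The cortex was 2.43-fold above stele (limma adjusted p = 0.046), a call that was lost without any 1 of the cortex or stele arrays (adjusted p = 0.052 to 0.18) and without epidermis replicate 1 or 3 or columella replicate 2 (0.054 to 0.056). It was also lost after quantile normalization (0.054), with the pseudocount halved (0.051), without the filter (0.062) and without the intensity trend (0.06). The F test of AT5G64100 kept its call under every alternative run.

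AT4G38540, which encodes a FAD-dependent monooxygenase, had 89.8, 69.8 and 71.5 in columella against 1898, 1531 and 2002 in cortex, with 527, 874 and 344 in stele. Its cortex signals did not overlap with those of any other population, and cortex was 3.28-fold above stele (limma adjusted p = 0.0026). AT3G04010, of glycosyl hydrolase family 17, whose enzymes cleave beta-glucans such as callose, had 220.4, 161 and 38.1 in columella against 2944, 5151 and 4464 in cortex. The cortex was 2.77-fold above stele (limma adjusted p = 0.027), and the call was lost without cortex replicate 2 or 3 or stele replicate 1 (adjusted p = 0.081 to 0.11). AT5G37740, a C2-domain gene of a family that binds membranes in the presence of calcium, had 85.9, 65.0 and 67.5 in columella against 1178, 1709 and 1636 in cortex and 683, 947 and 796 in endodermis. It was 1.85-fold higher in cortex than in endodermis (limma adjusted p = 0.021), a call lost after quantile normalization (0.054) and without cortex replicate 2 or 3 or endodermis replicate 1 or 3 (0.054 to 0.078).

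**Figure D5:**
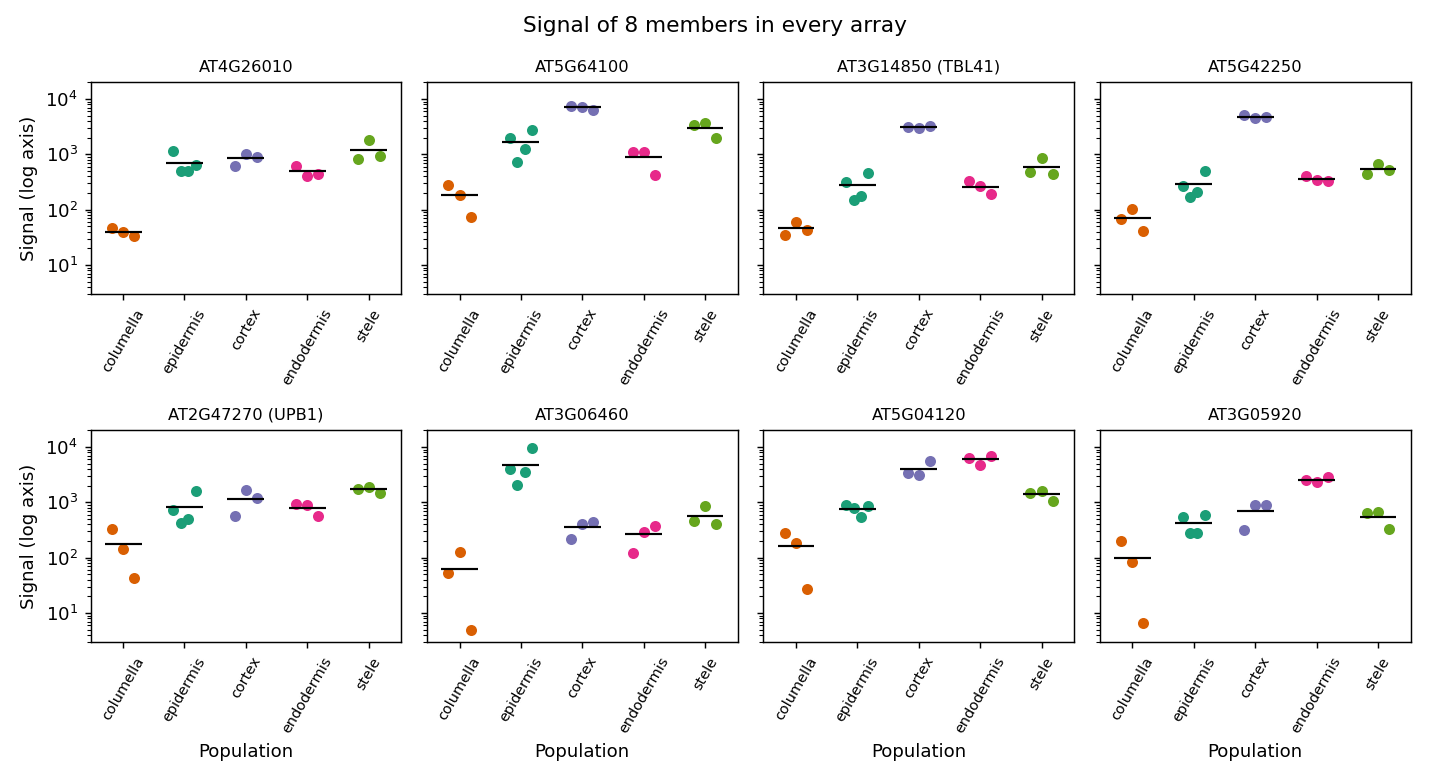
Signal (log axis) of 8 members with a named gene in every array, with points for arrays and a line at the mean of each population. Columella points are lowest in each panel except for AT3G06460, where 1 columella array lies at 128 and 1 endodermis array at 121, and the highest population is cortex, endodermis, stele or epidermis depending on the gene.

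Other named members had their highest mean in the cortex without being above each other population. AT2G27360, a GDSL esterase or lipase gene, had 73.0, 38.1 and 3.28 in columella against 1150.0, 1041 and 1377 in cortex and 722, 632 and 1133 in endodermis. Its cortex was 1.47-fold above endodermis (limma adjusted p = 0.35), while epidermis was below both cortex and endodermis (log2 differences -2.13 and -1.58, limma adjusted p = 6.8e-04 and 0.0054). AT1G61740, of the TauE/SafE membrane transporter family, had the same order, with 92.3, 74.6 and 24.1 in columella against 1096, 855 and 1372 in cortex and 1028, 712 and 699 in endodermis. It was lower in epidermis than in cortex and in endodermis (log2 differences -2.14 and -1.70, limma adjusted p = 1.9e-04 and 0.0010).

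AT1G19900, related to galactose oxidases, was low in both columella and endodermis. Its signals were 44.8, 42.9 and 13.5 in columella and 383, 131 and 107 in endodermis, against 753, 2057 and 1285 in cortex and 1072, 1571 and 1071 in stele. The endodermis was below cortex, stele and epidermis (differences of 2.76 for cortex minus endodermis, -2.72 for endodermis minus stele and 1.87 for epidermis minus endodermis on the log2 scale, limma adjusted p = 3.0e-04, 6.5e-04 and 0.0027). Cortex and stele were at 1365 ± 655 and 1238 ± 288 (SD, n = 3 each), and which of these was higher changed with quantile normalization. The alpha/beta hydrolase gene AT3G44510 had 58.3, 37.3 and 17.0 in columella against 526, 1014 and 659.7 in cortex, and 156, 152, 163 and 443 in epidermis, where replicate 4 stood alone.

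AT4G32460, of a plant family of secreted wall proteins, averaged 181 ± 133 in columella and 2263 ± 827 in cortex (SD, n = 3 each), and its F test was called (limma adjusted p = 0.016), except without cortex replicate 1 (0.068). AT1G18980, a germin-like gene, averaged 198 ± 78.7 in columella and 2059 ± 381 in cortex (SD, n = 3 each). Its F test (limma adjusted p = 0.041) was lost under 9 alternatives (adjusted p up to 0.12), 7 of which left out 1 array. AT5G12880, a proline-rich protein gene, averaged 109 ± 86.4 in columella and 1472 ± 754 in cortex (SD, n = 3 each). Its F test was not called (limma adjusted p = 0.088), but it passed with array weights (7.7e-04), without epidermis replicate 4 (0.006), without cortex replicate 1 (0.034) and without stele replicate 2 (0.047).

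The members highest in the endodermis included a phosphoglycerate mutase family gene and a gene for a protein with a heavy-metal-associated domain. AT5G04120, of the phosphoglycerate mutase family, had 279.7, 185 and 27.2 in columella against 6334, 4671 and 6956 in endodermis. It had 895, 782, 541 and 856 in epidermis, 3378, 3153 and 5567 in cortex and 1469, 1639 and 1080.2 in stele. Endodermis and cortex overlapped (1.51-fold, limma adjusted p = 0.35), and both were above epidermis and stele. Endodermis minus stele was 2.09 and epidermis minus endodermis -2.95 (log2, limma adjusted p = 0.0046 and 4.8e-05).

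AT3G05920, whose protein has a heavy-metal-associated domain, had 203, 82.8 and 6.53 in columella against 2587, 2295 and 2827 in endodermis. It had 539, 274, 280.3 and 591 in epidermis, 316, 882 and 888 in cortex and 632, 662 and 335 in stele. The endodermis arrays lay above all others, 4.02-fold above cortex (log2 difference 2.01, SE 0.64, limma adjusted p = 0.017). That call was lost without cortex replicate 1 (adjusted p = 0.079) and without endodermis replicate 3 (0.052). AT4G28085 had 135, 35.4 and 18.9 in columella against 1467, 1599 and 1516 in endodermis and 227, 862 and 826 in cortex. It was 2.76-fold higher in endodermis than in cortex (limma adjusted p = 0.038), which was lost without cortex replicate 1 (0.2), without any 1 endodermis array (0.07 to 0.088) and with array weights (0.064). AT1G78260, an RNA-binding protein gene, averaged 61.9 ± 51.0 in columella and 734 ± 139 in endodermis (SD, n = 3 each). Its F test was not called (limma adjusted p = 0.085), but it passed after quantile normalization (0.046), with the pseudocount doubled (0.042), with array weights (0.006), without columella replicate 3 (0.0045) and, narrowly, without columella replicate 1 (0.05). In the main fit epidermis was below endodermis (epidermis minus endodermis -1.29 on the log2 scale, limma adjusted p = 0.034).

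The members highest in the stele included the one with the largest ratio. AT4G26010, a class III peroxidase gene, had 46.0, 40.1 and 34.1 in columella against 811, 1834 and 930.2 in stele. It had 1166, 495, 497 and 646 in the epidermis arrays, 625, 1022 and 882 in the cortex arrays and 618, 411 and 449 in the endodermis arrays. All 13 arrays of the other populations were above 400, the 3 columella arrays were within 12 signal units of each other, and the lowest of the 4 means was 12.3 times the columella mean. The F test was called (limma adjusted p = 0.023), with endodermis lower than stele (log2 difference -1.18, adjusted p = 0.013). Stele was 1.35-fold above cortex, the next population, which was not called (limma adjusted p = 0.34). The F call was lost without endodermis replicate 2 or 3 or stele replicate 2 (adjusted p = 0.062 to 0.077).

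UPB1 (AT2G47270) had 337, 142 and 43.9 in columella against 1782, 1874 and 1484 in stele. It had 741, 416, 494 and 1609.6 in the epidermis arrays, 556, 1650.0 and 1211 in the cortex arrays and 955, 884 and 565 in the endodermis arrays. The columella arrays spanned a wide range and were all below the other 13. UPB1 was not called in the F test (limma adjusted p = 0.14), but it passed without epidermis replicate 4 (adjusted p = 0.031) and with array weights (adjusted p = 0.0087). BGLU15 (AT2G44450), a beta-glucosidase gene, had 129, 97.6 and 76.6 in columella against 866, 1152 and 820.1 in stele and 579, 432, 387 and 417 in epidermis. Its slope from outside to inside was positive (limma adjusted p = 0.0073). Epidermis was below stele (epidermis minus stele -1.04 on the log2 scale, limma adjusted p = 0.0046), while the means were 650 in cortex and 585 in endodermis. Stele was 1.53-fold above cortex, the next population, which was not called (limma adjusted p = 0.10). The F call of BGLU15 (adjusted p = 0.014) was lost without stele replicate 2 (0.065). AT2G18690 averaged 53.0 ± 6.93 in columella and 753 ± 426 in stele (SD, n = 3 each). Its F test was not called (limma adjusted p = 0.075), but it passed with array weights (0.019), without epidermis replicate 4 (0.0095), without cortex replicate 2 (0.016) and without stele replicate 3 (0.043). In the main fit cortex was below stele (cortex minus stele -1.60 on the log2 scale, limma adjusted p = 0.036). The slope of AT2G18690 was called as rising inwards (limma adjusted p = 0.049).

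Of the 2 members highest in the epidermis, 1 has a named gene. AT3G06460, of the ELO family that elongates very-long-chain fatty acids, had 52.7, 128 and 4.92 in columella against 3961, 2053, 3604 and 9433 in epidermis. It had 215, 405 and 448 in the cortex arrays, 121, 297 and 376 in the endodermis arrays and 470.4, 854 and 403 in stele. Every epidermis array lay above all others, and columella replicate 2 lay above 1 endodermis array. The epidermis was 7.36-fold above stele (log2 difference 2.88, SE 0.60, limma adjusted p = 0.0011). The other, 262427_s_at, had 170.3, 168 and 20.9 in columella against 7257, 5167, 6413 and 11674 in epidermis, and was 3.86-fold higher in epidermis than in stele (limma adjusted p = 0.031). Both were above each other population, and that count was 1 without epidermis replicate 1, 3 or 4 or stele replicate 1 or 3.

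Among the 19 members without a single named gene, 16 were highest in cortex and 1 each in epidermis, endodermis and stele, where the 22 with 1 gene had 13, 1, 4 and 4. Their ratios ran from 4.02 to 9.33. The probe set 252222_at had the highest ratio of these, with 70.9, 8.18 and 8.01 in columella against 269, 793 and 804 in cortex and 307, 240.1 and 325 in stele. Columella replicate 1 was the highest of the 3, and replicates 2 and 3 were under 10.21, the 20th percentile of the table. The probe set 266330_at had 26.3, 21.6 and 61.4 in columella against 3669, 3681 and 3323 in cortex, and its cortex was 4.34-fold above stele (limma adjusted p = 0.0014). In 247333_at, with 32.0, 46.8 and 28.0 in columella against 3676, 2881 and 3473 in cortex, the cortex was 3.21-fold above stele (limma adjusted p = 0.0038). The probe set 264517_at was the 1 member above each other population in stele, at 1162 ± 173 against 616 ± 47.1 in endodermis (SD, n = 3 each; 1.86-fold, limma adjusted p = 0.044). That call was lost without any 1 stele or endodermis array, without epidermis replicate 1 or 3, columella replicate 2 or cortex replicate 3, and after quantile normalization, with the pseudocount halved, without the filter or without the intensity trend. The probe set 251438_s_at reads 2 genes and overlapped between populations, since epidermis replicate 4, at 89.0, was under columella replicates 1 and 2, at 140 and 111.

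The families of 4 named members were not uniformly low in the columella. Of 73 listed class III peroxidase genes, 55 were measured and 37 tested, and in columella against the mean of the other 4 populations 22 were lower, 7 higher and 8 not called, with a median of -1.64 (log2), where 24.4% of all tested probe sets were lower and 22.8% higher and the median was -0.03. Both member genes are among the 22. AT5G64120 missed membership only by the minimum of 200, with 41.8, 3.79 and 40.4 in columella, a lowest mean of 147 and a ratio of 5.15, and so did AT1G14550 (lowest mean 177, ratio 4.45). Peroxidase genes also lay on the other side: AT5G51890 had 7879, 6076 and 3909 in columella and means of 63.1 to 2185 elsewhere, and AT2G43480 had 1189, 989.6 and 1551 in columella against a mean of 898 in epidermis and 19.2 to 41.3 in the other 3.

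Of 19 tested TBL genes, with 22 measured, 9 were lower in columella, 4 higher and 6 not called (median -0.41). The 4 higher were TBL16, TBL34, TBL42 and TBL45. TBL37, which is no member but is among the 9 lower, averaged 475 in columella and 315 in epidermis, against 2867 in cortex and 4348 in endodermis. Of 8 tested beta-glucosidase genes, with 20 measured, 2 were lower, 2 higher and 4 not called (median -0.41). BGLU25, 1 of the 2 higher, had a mean of 2594 in columella, against 2622 in epidermis and 172 in endodermis. These lists were chosen with the members known, so the counts describe the families and test nothing about them.

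The 22 named genes lay on all 5 chromosomes, 4 on chromosome 1, 4 on chromosome 2, 5 on chromosome 3, 4 on chromosome 4 and 5 on chromosome 5. None was next to another in the gene table of the TAIR10.1 assembly, and the closest pair, AT3G05920 and AT3G06460, were 212.853 kb apart. Their gene lengths were 669 to 3842 bases, with a median of 1907, where the median of 2234 nuclear genes at 200 or more was 2344 bases. No difference in length was tested.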

How the data were processed

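The authors deposited 1 intensity per probe set and array, a linear MAS5 signal per the submitters' processing notes (the values show a common scaling of the arrays), and RNA was labelled in 2 rounds of amplification, per the labels' protocols. The genome build, the MAS5 version, detection calls and scan dates were not used here. The trimmed means of the 16 columns were 249.88 to 249.90, so no further scaling was applied. Of 22810 probe sets 64 are controls, 0 of 120 column pairs were identical and 0 columns were unused. The signal above background and the number of arrays limit the precision.

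Gene names came from the platform annotation (1 gene for 13513 probe sets without controls, several for 503, none for 8730), and 13436 loci matched the RefSeq gene table of TAIR10.1. Roles of genes known by locus tag are general knowledge. Probe sets of organelle genes (112 by gene, 31 without a gene whose ID lies among them) were not counted as nuclear. The members and gene lists were chosen with earlier results of these data known, the member rule using these same signals. Gene classes by product name could not be made because the gene table holds no product names, so families were listed by locus or symbol, with the probe set of highest mean for a gene.

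Signals entered as log2(signal + 10.21), the 20th percentile, so folds understate those of low signals. Tests covered the 16221 probe sets that reached 38.05, the 40th percentile, in 3 arrays. The model, with limma 3.58.1 (R 4.3.3), had 1 mean per population over all 16 arrays, leaving 11 residual degrees of freedom, and eBayes used an intensity trend. Tests were 2-sided, with Benjamini-Hochberg adjustment per contrast at 0.05. Contrasts were the 6 pairs and the F test among epidermis, cortex, endodermis and stele, a slope with weights -3, -1, 1 and 3, and columella minus the mean of the other 4. The method was checked on simulated data. Members named were all with 1 gene, which covers the rule of the 15 highest ratios, the 8 highest lowest means and the extremes in range and slope, and the neighbours of the thresholds. Probe sets without a gene that are given values were chosen after these were seen. Alternatives were quantile normalization, other pseudocounts and filters, no trend, a block for the replicate number, array weights, other limits of the rule, and leaving out each array. Leaving out each columella array in turn was in the plan, while comparing the 3 columella arrays with each other was added after seeing the data. Python 3.11.15 with matplotlib 3.10.9 drew the figures.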

Additional observations from a re-analysis of the deposited data

Results flagged for a closer look

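One member had a single array far from the rest of its group. AT3G44510, an alpha/beta hydrolase gene, had a signal of 442.8 in epidermis replicate 4, against 156, 152 and 163 in the other 3 epidermis arrays, and on the log2 scale the gap to the nearest array was 0.940 of the range, above Dixon's critical value for 4 samples. Epidermis was the 1 group of 4 arrays, so 1 value per member was looked at in 41 members, and chance alone gives about 1 in 20. Epidermis replicate 4 was also the array with the highest epidermis signal in 33 of 41 members, against 41.9% of the 4547 nuclear probe sets at 200 or more. It had the highest summed root cap markers of its group too, 4148 against 1406 to 2338. The part of either in the value of AT3G44510 was not tested.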

How the results depend on the processing

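The number of members follows the limits of the rule: 67 with a minimum of 100, 22 with 400, 91 with a ratio of 3, 14 with a ratio of 6, 12 when every columella array had to be at or under 25% of the lowest mean, and 23 when only genes on chromosomes 1 to 5 were allowed. Quantile normalization gave 40 members, 38 of them shared, and medians in place of means gave 36, with 31 shared. Leaving out 1 array gave 24 (columella replicate 3) to 96 (columella replicate 1) members. The counts of members called ranged, over the fits without 1 array, from 29 to 37 in the F test, 22 to 30 in epidermis minus cortex, 12 to 20 in epidermis minus endodermis, 6 to 19 in epidermis minus stele, 14 to 23 in cortex minus endodermis, 15 to 24 in cortex minus stele, 8 to 15 in endodermis minus stele, 4 to 9 for the slope and 9 to 16 for cortex above each other population. Array weights gave 18 members in epidermis minus stele and 13 for the slope. Of all tested probe sets, 2773 to 3871 were higher and 2914 to 4232 lower in columella without 1 array.

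The replicate numbers in the titles did not pair the samples: over 30 pairs with the same number the correlation of deviations from the population mean was -0.265 to 0.237, and 6 pairs exceeded 0.1. With the replicate number as a block, 19 members were called in epidermis minus stele, 38 in the F test, 30 in epidermis minus cortex, 21 in epidermis minus endodermis (15 of them lower in epidermis) and 16 for cortex above each other population.

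For named members, the difference of the highest to the next population changed sign in 3, none of them called: AT1G19900 after quantile normalization (-0.020, adjusted p = 0.98) and, over the fits without 1 array, at -0.30 to 0.41, AT5G12880 at -0.064 to 0.78 and AT1G78260 at -0.0058 to 0.37 (log2). The F call was kept under every alternative run in 14 of 18 named members and lost under at least 1 in 4. The 4 named members without an F call each passed under 3 to 6 alternatives, all 4 with array weights and with the block (adjusted p with the block 0.0077 for AT5G12880, 0.027 for UPB1, AT2G47270, 0.033 for AT1G78260 and 0.0015 for AT2G18690). The causes were not tested.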

Other observations

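Probe sets of organelle genes were left out by the rule. Of these, 9 met its other criteria, and 7 of the 9 read genes of the plastid genome by the annotation.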
